A study of Gadus morhua with 47 samples.

Results

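The 40 transcripts described here were chosen from the liver transcriptome of Atlantic cod (Gadus morhua) because they were measurable without estrogen and higher with it. For each fish, the mean log2(CPM + 0.1) of its slices with DMSO or BaP was subtracted from that of its slices with EE2 or Mix, where CPM is the count of mapped read segments scaled to a common library total of 1 M (mega). A transcript had to average 1 to 500 CPM over the DMSO and BaP slices and to have a difference above 0 in 7 or more of 8 fish, and the 40 with the largest mean difference were taken. Of 22100 transcripts listed, 13846 were in that range of levels, 713 of these had a difference above 0 in 7 or more fish, and 167 had it in 8 of 8 fish. Of the 40 members, 35 had a difference above 0 in 8 of 8 fish and 5 in 7 of 8 fish.

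The samples were precision-cut liver slices, thin sections of living liver kept in culture, from 8 cod (5 males and 3 females). Slices carried EE2 (ethynylestradiol, a synthetic estrogen) at 10 nM (7 slices) or 1 µM (6 slices), Mix (EE2 and BaP together, each at the stated dose) at 10 nM (6 slices) or 1 µM (6 slices), BaP (benzo[a]pyrene, a combustion product and aryl hydrocarbon receptor ligand) at 10 nM (7 slices) or 1 µM (7 slices), or the vehicle DMSO alone (8 slices). No transgene or gene deletion is named for any group, and the vehicle's presence in the other groups is not given in the sources used here. Age and strain of the fish are not given there either. The design asked how an estrogen, an aryl hydrocarbon receptor ligand and their combination changed transcript levels in liver tissue.

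In fish, the liver is a main target of estrogen. Estrogen crosses the cell membrane, binds a nuclear estrogen receptor in hepatocytes, and the receptor then acts at the regulatory DNA of its target genes; the classical targets are the egg yolk precursor vitellogenin and eggshell proteins, which maturing females make in bulk and males normally make little of. The aryl hydrocarbon receptor, which BaP activates, is known to interfere with estrogen receptor signalling in liver cells. These statements are background: the deposited tables list identifiers without gene names, 0 of the 22100 identifiers matched a RefSeq table of 33114 cod genes, and no member is given a name or a role here. For the same reason the hepatocyte markers, the markers of other liver cells and the list of estrogen-responsive genes could not be looked up, so the tissue label was not checked against markers.

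Libraries held 36.6 to 67.0 M mapped segments (median 49.1 M), and 3 segments corresponded to 0.0448 to 0.0820 CPM. In 4 libraries (from fish 2 with DMSO, fish 6 with BaP 10 nM, fish 7 with BaP 1 µM, fish 8 with Mix 1 µM) the TMM factor, edgeR's scaling of library size, was 0.572 to 0.758, against 0.832 to 1.28 in the other 43. The choice of members left these 4 out, so that 24 EE2 and Mix slices stood against 19 DMSO and BaP slices. The levels below are of these 43 libraries unless stated otherwise. In whole slices, fewer cells of a type and less RNA per cell cannot be told apart.

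The mean differences chose the members, so they are a description and carry no test. On the log2 scale they fell off steeply with rank, from 5.77, 5.42, 5.19, 4.59, 4.18, 4.05, 3.59 and 3.18 for rank 1 to 8 to 1.77 for rank 9, 1.74 for rank 10 and 1.5 for rank 11. The largest gap between neighbours, between rank 8 and rank 9, splits the members into 8 with large differences and 32 with differences of 0.87 to 1.77. At the limit, rank 38 to 40 had 0.90, 0.88 and 0.87, and the transcripts just outside it had 0.85, 0.84 and 0.82. The same rule with the sign turned round gave 40 transcripts with mean differences of -1.31 to -0.47, and the median over all 13846 transcripts in the range of levels was 0.00. The members had a median coding length of 1104 bases, against 1173 bases over the 13846 transcripts.

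The description "already expressed" held for a part of the 40. In 23 members the DMSO and BaP slices averaged 1 CPM or more in every one of the 8 fish, and 21 of these 23 were of rank 9 to 40. Among rank 1 to 8 only rank 1 and rank 6 met that in all fish. In 9 members it was met in 4 fish or fewer, and in 8 members, 4 of them of rank 1 to 8, the median DMSO and BaP slice lay under 1 CPM. In 8 members the mean fell under the 1 CPM that the rule asked for when the slices of 1 fish were left out. The fish named here is the one whose removal lowered the mean most, and for rank 29 and 36 it was not the only such fish. Rank 2, 4, 5, 7, 8 and 29 averaged 0.894, 0.820, 0.606, 0.792, 0.802 and 0.710 CPM without the slices of fish 3, a female, and rank 23 and 36 averaged 0.894 and 0.934 CPM without those of fish 1, a male. Fish 3 also had the highest DMSO and BaP level of rank 1, and fish 6, another female, that of rank 3 and 6, but these 3 stayed above 1 CPM without any single fish. Log2 levels in DMSO and BaP slices varied between fish with a median SD of 1.07 over the members, 1.90 over rank 1 to 8 and 0.83 over rank 9 to 40, against 0.50 over the 13846 transcripts. The 40 lowered transcripts of the rule with the sign turned round had a median SD of 1.25, so a wide spread between fish was not particular to the members.

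**Figure D1:**
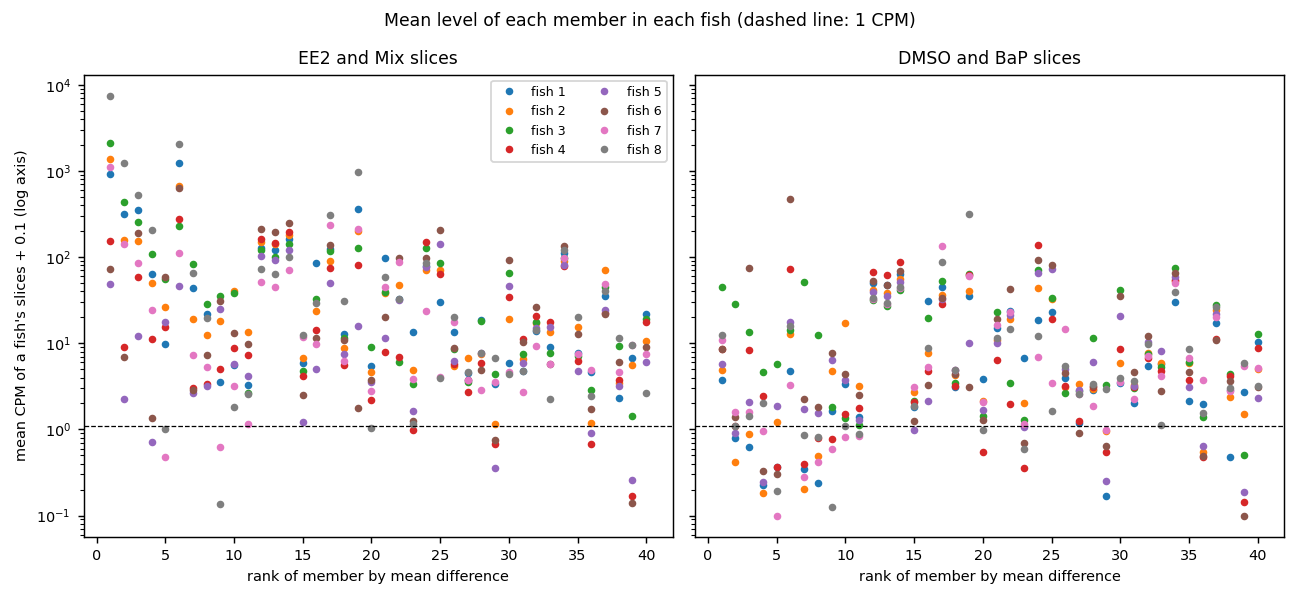
Mean CPM + 0.1 (log axis) of every member in each of the 8 fish (colours), in EE2 and Mix slices (left) and in DMSO and BaP slices (right), by rank of mean difference; the dashed line marks 1 CPM. On the right, rank 2, 4, 5, 7 and 8 lie under 1 CPM in 4 or 5 of the 8 fish, while rank 12 to 14 lie well above the line in every fish.

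ENSGMOT00000018724.1, the member of rank 1, has a coding length of 4902 bases. With EE2 10 nM it ranged from 29.7 to 4476 CPM (median 580, n = 7), with EE2 1 µM from 33.8 to 12281 CPM (median 734, n = 6) and with Mix 10 nM from 38 to 5766 CPM (median 909, n = 6). With Mix 1 µM it had 409, 4343, 105, 72.4 and 63.7 CPM in fish 2 to 6. Without EE2 it ranged from 2.56 to 36.6 CPM with BaP 10 nM (median 8.15, n = 6), from 2.1 to 45 CPM with BaP 1 µM (median 4.49, n = 6) and from 5.91 to 53.6 CPM with DMSO (median 10.9, n = 7). Of the 24 EE2 and Mix slices, 20 lay above the highest DMSO or BaP slice, which came from fish 3, so the groups overlapped over all fish though not within any fish. Averaged by fish, the EE2 and Mix slices ran from 48.1 CPM in fish 5 and 72.4 CPM in fish 6 to 7508 CPM in fish 8, a 156-fold span, and the DMSO and BaP slices from 3.62 CPM in fish 1 to 45.1 CPM in fish 3, a 12.5-fold span. The difference was 2.91 to 9.21 on the log2 scale, smallest in fish 6 and largest in fish 8 (5.77 ± 2.42, SD, n = 8 fish).

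ENSGMOT00000013458.1, the member of rank 6 (1074 bases), had the highest mean level of all members in DMSO and BaP slices, 70.1 CPM, and most of that mean came from fish 6. With EE2 10 nM it ranged from 33.4 to 1225 CPM (median 503, n = 7), with EE2 1 µM from 19.97 to 3696 CPM (median 581, n = 6) and with Mix 10 nM from 38.2 to 1359 CPM (median 399, n = 6). With Mix 1 µM it had 139, 472, 274, 81.0 and 573 CPM in fish 2 to 6. Without EE2 it ranged from 3.80 to 83.1 CPM with BaP 10 nM (median 13.7, n = 6), from 5.09 to 381 CPM with BaP 1 µM (median 12.3, n = 6) and from 3.16 to 565 CPM with DMSO (median 15.6, n = 7). In fish 6 the EE2 and Mix slices averaged 637 CPM and the DMSO and BaP slices 473 CPM, a difference of 0.44 on the log2 scale, while in fish 1 they averaged 1226 and 4.68 CPM, a difference of 7.87. With estrogen fish 6 lay within the range of the other fish, and without estrogen it lay above all of them.

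**Figure D2:**
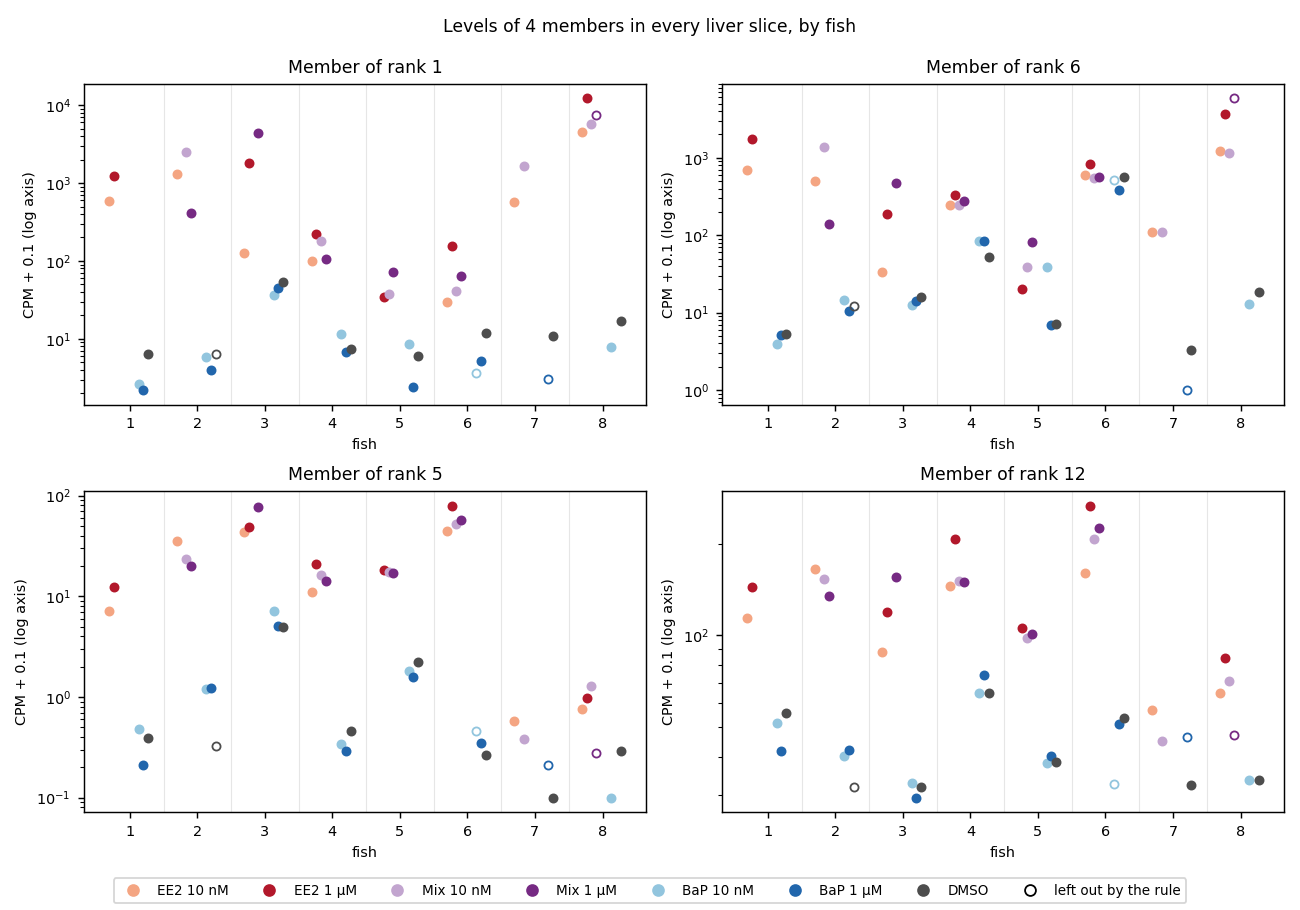
CPM + 0.1 (log axis) of the members of rank 1, 6, 5 and 12 in every slice, by fish; within a fish, EE2 and Mix slices are left of BaP and DMSO slices, and open circles are the 4 libraries left out by the rule. Rank 1 and 6 reach their highest values in fish 8 and rank 5 in fish 6.

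The other members of rank 1 to 8 had lower levels and mostly the same order of fish. Rank 2 (1920 bases) had 1.55 to 2127 CPM in EE2 and Mix slices (median 33.2) and 0.119 to 42.7 CPM in DMSO and BaP slices (median 1.09). By group, medians were 91.3 CPM with EE2 10 nM, 185 CPM with EE2 1 µM, 100 CPM with Mix 10 nM and 6.5 CPM with Mix 1 µM, against 0.777 CPM with BaP 10 nM, 0.333 CPM with BaP 1 µM and 1.51 CPM with DMSO. Rank 3 (969 bases) had 9 to 842 CPM in EE2 and Mix slices (median 135) and 0.247 to 86.0 CPM in DMSO and BaP slices (median 1.57). The 3 highest slices without EE2 that entered these ranges for rank 2 were those of fish 3, and both such slices of fish 6 were the highest for rank 3. Group medians of rank 3 were 136, 276, 114 and 51.7 CPM with EE2 10 nM, EE2 1 µM, Mix 10 nM and Mix 1 µM, against 3.15, 4.4 and 1.57 CPM with BaP 10 nM, BaP 1 µM and DMSO. Group medians, here and for the other members, come from groups that hold different fish, so they do not compare treatments. Those of Mix 1 µM rest on fish 2 to 6. A model with terms for fish and treatment, fitted to all 47 libraries, put rank 3 at 4.81 over DMSO with Mix 10 nM and 5.53 with Mix 1 µM (log2). It put rank 2 at 5.12 and 4.08 in the same order.

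Rank 4, the longest member at 5052 bases, had 0.231 to 356 CPM in EE2 and Mix slices (median 14.4) and 0.0563 to 6.91 CPM in DMSO and BaP slices (median 0.236). Medians by group were 16.9, 58.0, 22.2 and 4.8 CPM with EE2 10 nM, EE2 1 µM, Mix 10 nM and Mix 1 µM, against 0.202, 0.0970 and 0.851 CPM with BaP 10 nM, BaP 1 µM and DMSO. The ranges overlapped: every EE2 and Mix slice of fish 5 and 6 lay below every DMSO and BaP slice of fish 3. Rank 7 (1401 bases) had 1.15 to 115 CPM in EE2 and Mix slices (median 5.10) and 0.0423 to 55.3 CPM in DMSO and BaP slices (median 0.547). Its group medians were 22.4, 28.3, 6.07 and 2.97 CPM with EE2 10 nM, EE2 1 µM, Mix 10 nM and Mix 1 µM, against 0.341, 0.488 and 1.14 CPM with BaP 10 nM, BaP 1 µM and DMSO. Fish 3 alone had 46.8 CPM with DMSO, where the other fish had 3.10 CPM or less. Rank 8 (870 bases) had 1.66 to 33.7 CPM in EE2 and Mix slices (median 7.10) and 0.112 to 14.9 CPM in DMSO and BaP slices (median 0.930). By group it had medians of 13.6, 17.4, 6.09 and 4.07 CPM with EE2 10 nM, EE2 1 µM, Mix 10 nM and Mix 1 µM, against 0.563, 0.883 and 0.939 CPM with BaP 10 nM, BaP 1 µM and DMSO. Counted per kilobase of coding length, the mean level in EE2 and Mix slices was 591 CPM for rank 6, 324 CPM for rank 1, 202 CPM for rank 3 and 140 CPM for rank 2, and it was 10.9 to 29.6 CPM for rank 4, 5, 7 and 8.

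Rank 5 (870 bases) followed another order of fish. It had 0.283 to 79.2 CPM in EE2 and Mix slices (median 17.9) and 0 to 7.06 CPM in DMSO and BaP slices (median 0.355). Medians by group were 10.8, 19.5, 16.8 and 20.1 CPM with EE2 10 nM, EE2 1 µM, Mix 10 nM and Mix 1 µM, against 0.736, 0.687 and 0.291 CPM with BaP 10 nM, BaP 1 µM and DMSO. Its difference was largest in fish 6 (7.56) and fish 4 (5.42) and smallest in fish 7 (2.23) and fish 8 (2.53), whereas rank 1 had 2.91 in fish 6 and 9.21 in fish 8. Across the 8 fish, the differences of the other 7 members of rank 1 to 8 correlated with each other with r of 0.87 to 0.99, and that of rank 5 correlated with them with r of -0.51 to -0.11. The order of fish shared by the 7 was not particular to them. The differences of rank 21 correlated with each of theirs with r of 0.93 to 0.99, and those of rank 24 with r of 0.75 to 0.89. These correlations are descriptions over 8 fish, and all members share the libraries. Over the 43 libraries, after fish means were taken out, r was 0.92 to 0.98 among the 7 and 0.66 to 0.79 between rank 5 and each of them; this measure holds the contrast the rule used.

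By the same measure, the 5 transcripts most like rank 1 among 14126 were, in order, the member of rank 2 (r = 0.98), a transcript outside the members whose DMSO and BaP slices averaged 0.571 CPM (r = 0.97, 3732 bases), and the members of rank 3 (r = 0.97), 4 (r = 0.97) and 6 (r = 0.96).

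The 32 members of rank 9 to 40 had smaller differences, and by the median SD their levels differed less between fish. That did not hold for each of them. Rank 9 spanned 304-fold between fish in DMSO and BaP slices and 968-fold in EE2 and Mix slices, and rank 19 spanned 105-fold and 585-fold. Summed over these 32, EE2 and Mix slices held 895 to 2792 CPM (median 1329, n = 24) and DMSO and BaP slices 423 to 728 CPM (median 543, n = 19), so the sums did not overlap. The rule chose these transcripts as higher in the same slices, so that separation is a description and nothing is read from it. Summed over rank 1 to 8, EE2 and Mix slices held 90.0 to 19448 CPM (median 883) and DMSO and BaP slices 8.04 to 670 CPM (median 44.2), and these sums overlapped. For each single member the slices overlapped over all fish, in 40 of 40, and the share of the 13846 transcripts with such overlap was not computed. Within each fish, all EE2 and Mix slices lay above all DMSO and BaP slices for 13 members, a count the rule itself favours; 17 of the 13846 transcripts had this. In 6 members the difference exceeded 1 on the log2 scale in all 8 fish. Any transcript of the range with this would be a member by the rule, so it is also 6 of the 13846.

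Rank 9 (936 bases) and rank 10 (1413 bases) had their largest differences in fish 3, at 4.27 and 4.70. Rank 9 had 0 to 39.3 CPM in EE2 and Mix slices (median 17.7) and 0.0158 to 9.64 CPM in DMSO and BaP slices (median 1.74). By group, medians were 3.59, 15.4, 12.4 and 28.2 CPM with EE2 10 nM, EE2 1 µM, Mix 10 nM and Mix 1 µM, against 1.23, 3.15 and 1.58 CPM with BaP 10 nM, BaP 1 µM and DMSO. In fish 7 and 8 it was under 1 CPM in every slice, and the differences there were -0.02 and 0.09. Rank 10 had 1.64 to 62.3 CPM in EE2 and Mix slices (median 9.37) and 0.727 to 18.8 CPM in DMSO and BaP slices (median 2.41). By group it had medians of 7.57, 9.45, 8.18 and 12.7 CPM with EE2 10 nM, EE2 1 µM, Mix 10 nM and Mix 1 µM, against 2.15, 3.42 and 1.58 CPM with BaP 10 nM, BaP 1 µM and DMSO. Its highest levels without EE2 were in fish 2.

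Rank 12, 13 and 14 moved together in all libraries. Their coding lengths were 645, 642 and 651 bases, and over the 43 libraries their log2 levels correlated with r of 0.996 to 0.998, with ratios of rank 12 to rank 13 between 1.04 and 1.28. Counts may include reads that fit more than 1 transcript, so these 3 cannot be counted as separate changes. Rank 12 had 45 to 266 CPM in EE2 and Mix slices (median 140) and 29.3 to 74.0 CPM in DMSO and BaP slices (median 40.1). Its difference was 0.65 to 2.01, with an SD of 0.46 over 8 fish, which is small beside the 2.42 of rank 1.

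Rank 19 (1551 bases) and rank 24 (1371 bases) had the highest mean levels in DMSO and BaP slices after rank 6, at 67.8 and 62.2 CPM. Rank 19 had 0.925 to 1457 CPM in EE2 and Mix slices (median 93.8) and 1.64 to 348 CPM in DMSO and BaP slices (median 39.9). Medians by group were 97.4, 74.1, 155 and 26.9 CPM with EE2 10 nM, EE2 1 µM, Mix 10 nM and Mix 1 µM, against 34, 23.2 and 59.5 CPM with BaP 10 nM, BaP 1 µM and DMSO. Its difference was 3.34 in fish 1 and -0.74 in fish 6, the fish with its lowest levels. The fit to all 47 libraries put rank 19 at -0.09 ± 0.61 (log2, SE) over DMSO with EE2 10 nM and 0.77 ± 0.65 with EE2 1 µM. With Mix 10 nM and Mix 1 µM it was 0.48 ± 0.64 and 0.76 ± 0.63 over DMSO. Over BaP at the same dose these were 1.06 ± 0.68 and 1.45 ± 0.70. Rank 24 had 22.4 to 173 CPM in EE2 and Mix slices (median 90.4) and 6.79 to 156 CPM in DMSO and BaP slices (median 66.4). Its group medians were 81.8, 111, 76.6 and 110 CPM with EE2 10 nM, EE2 1 µM, Mix 10 nM and Mix 1 µM, against 57.7, 66.7 and 56.4 CPM with BaP 10 nM, BaP 1 µM and DMSO. Its differences were 2.73 in fish 8 and 2.06 in fish 1, and 0.12 or less in fish 4 and 6. At the limit, rank 40 (1965 bases) had 2 to 24.6 CPM in EE2 and Mix slices (median 9.19) and 1.70 to 15.2 CPM in DMSO and BaP slices (median 5.09), and the transcript just outside had 59.7 to 284 CPM (median 129) and 52.1 to 100.2 CPM (median 64.8).

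No fish was high or low for all members. The median difference over rank 1 to 8 was 7.89, 6.32, 3.31, 2.93, 1.70, 2, 4.89 and 7.10 in fish 1 to 8, and over rank 9 to 40 it was 1.38, 1.2, 1.08, 1.17, 0.61, 1.28, 0.64 and 1.13. Fish 1 had the highest and fish 5 the lowest median in both groups of members, and fish 7 lay in the middle for rank 1 to 8 and low for rank 9 to 40. Fish 7 had the smallest difference of the 8 fish for 14 members and fish 5 for 9, and fish 1 had the largest for 12 members and fish 6 for 9. Fish 7 had 1 DMSO or BaP slice and 2 EE2 or Mix slices behind its difference, the fewest of all fish. The fish also held different treatments. Fish 1 had no Mix slice, fish 5 had no EE2 10 nM slice, and fish 7 had EE2 and Mix at 10 nM only. In these medians, differences between fish and differences in the treatments they held cannot be told apart.

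**Figure D3:**
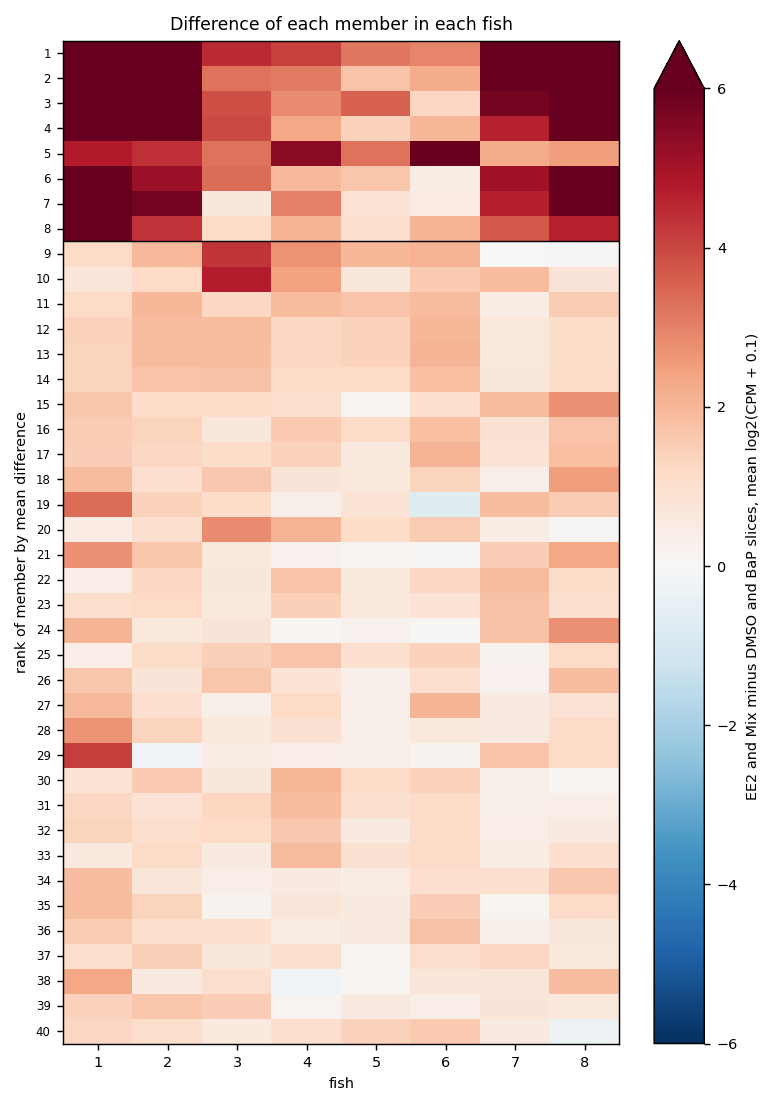
Difference of EE2 and Mix slices from DMSO and BaP slices (mean log2(CPM + 0.1), colour) for every member (rows, by rank) in each fish (columns); differences above 6 take the darkest shade, and the line separates rank 8 from rank 9. Rank 1 to 4 and 6 to 8 are darkest in fish 1, 2, 7 and 8, rank 5 in fish 6, and rank 9 and 10 in fish 3.

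The libraries that were not used to choose the members gave the same direction for most of them. In the DMSO slice of fish 2, 38 of 40 members were lower than in the EE2 and Mix slices of that fish (median log2 difference 1.61), and 80.3% of the 13846 transcripts were lower there too, by a median of 0.80. In the BaP 10 nM slice of fish 6 the members' count was 38 and the median 1.4, against 80.8% and 0.73 over the 13846, and in the BaP 1 µM slice of fish 7 it was 34 and 1.07, against 67.7% and 0.57. In the Mix 1 µM slice of fish 8, 33 of 40 members were higher than in the DMSO and BaP slices of that fish, by a median of 1.23, while 19.3% of the 13846 transcripts were higher and their median was -1.19. The comparison slices of the same fish had entered the rule, so these counts are not independent of it.

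When edgeR's quasi-likelihood model was fitted to the 47 libraries, with terms for fish and for treatment, the members called higher at an adjusted p under 0.05 were 21 with EE2 10 nM, 23 with EE2 1 µM, 14 with Mix 10 nM and 21 with Mix 1 µM, each against DMSO. The share of all 17824 transcripts tested that was called higher was 0.281%, 0.348%, 0.236% and 0.37% in these comparisons. Against BaP at the same dose, 12 members were called higher with Mix 10 nM and 17 with Mix 1 µM, and the shares over all transcripts were 0.23% and 0.269%. The rule used these contrasts and the comparisons with DMSO share their control slices, so nothing is read from the counts. The fitted log2 fold change of ENSGMOT00000018724.1 over DMSO was 4.87 ± 0.86 (SE) with EE2 10 nM, 5.60 ± 0.88 with EE2 1 µM, 5.49 ± 0.90 with Mix 10 nM and 5.44 ± 0.88 with Mix 1 µM. That of ENSGMOT00000013458.1 was 3.57 ± 0.97, 4.15 ± 1.02, 3.78 ± 1.00 and 4.68 ± 1.03 in the same order.

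The dose of EE2 was not part of the rule. All 8 members of rank 1 to 8 were higher with EE2 1 µM than with EE2 10 nM in each of the 5 fish with both slices, and so were 16 of the 32 members of rank 9 to 40. This holds for EE2 alone, and the 2 Mix doses were not compared within fish. In the fit to the 47 libraries, the log2 fold change over DMSO was lower with Mix 1 µM than with Mix 10 nM for rank 1, 2, 4, 5 and 7. It was higher for rank 3, 6 and 8. Over the 13846 transcripts in the range of levels, 17% were higher with EE2 1 µM than with EE2 10 nM in all 5 fish. Rank 1 to 8 apart from rank 5 moved together across libraries (r of 0.92 to 0.98), and rank 12, 13 and 14, which may share reads, are among the 16. The members counted are therefore not separate observations. The median difference of rank 1 to 8, EE2 1 µM minus EE2 10 nM, was 1.21, 2.18, 0.76, 1.01 and 1.42 on the log2 scale in fish 1, 3, 4, 6 and 8, against 0.05, 0.26, 0.16, 0.24 and -0.01 over the 13846. Rank 9 to 40 had medians of 0.35, 0.42, 0.49, 0.13 and 0.40 in the same fish. ENSGMOT00000018724.1 was higher at 1 µM in 5 of 5 fish, by 1.1 to 3.86 (1.99 ± 1.16, SD, n = 5). Its two-sided p was 0.0625 by an exact sign-flip test, the smallest p that 5 fish allow. Adjusted over the 8 exact tests made with all libraries, it was 0.125. ENSGMOT00000013458.1 was higher in 5 of 5 fish, by 0.44 to 2.51 (1.27 ± 0.86, SD, n = 5), with the same exact p.

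Across all transcripts, edgeR's quasi-likelihood fit called 0 of 40 members and 0% of the 17824 transcripts at an adjusted p under 0.05 between EE2 1 µM and EE2 10 nM. DESeq2 called 0 members and 0 of the 17824. At an unadjusted p under 0.05 edgeR gave 1 member, rank 26 (0.51 ± 0.25, SE), and 1.34% of all transcripts. The members' median log2 fold change was 0.23, with 32 of 40 above 0 (0.13 without fish 1), and the median over all transcripts was 0.00. That fit also draws on fish with only 1 of the doses, and it put ENSGMOT00000018724.1 at 0.72 ± 0.82 (SE). A fit of the EE2 groups alone put it at 1.80 (adjusted p = 0.0953) and called 2 members, rank 3 at 1.17 (adjusted p = 0.0283) and rank 4 at 1.74 (adjusted p = 0.0349), where it called 0.0244% of all transcripts.

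**Figure D4:**
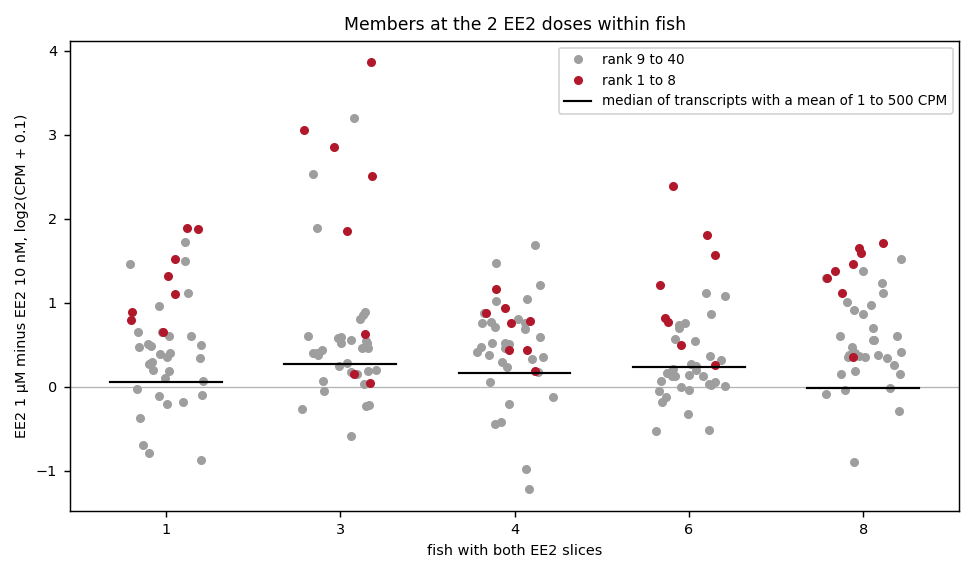
EE2 1 µM minus EE2 10 nM (log2(CPM + 0.1)) of each member in the 5 fish with both slices; red points are rank 1 to 8, grey points rank 9 to 40, and black lines the median of the 13846 transcripts with a mean of 1 to 500 CPM. All red points lie above 0 in every fish, and the grey points lie on both sides of 0.

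BaP was tested without and with EE2. With BaP 1 µM against DMSO, edgeR called 0 of 40 members against 0.0673% of all transcripts, and at an unadjusted p under 0.05 it gave 0 members against 6.94%. With BaP 10 nM against DMSO it called 0 of 40 against 0%, and at an unadjusted p under 0.05 it gave 0 members against 1.58%. DESeq2 called 0 members in both, against 32 of all 17824 transcripts with BaP 1 µM and 0 with BaP 10 nM. The members' median log2 fold change was 0.09 with BaP 1 µM and 0.00 with BaP 10 nM, with 25 and 20 of 40 above 0, and the medians over all transcripts were -0.01 and -0.01. Without the 4 libraries the members' medians were -0.01 and -0.07.

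Within fish, the medians of rank 1 to 8 lay below 0 with BaP 1 µM. The median of rank 1 to 8, BaP 1 µM minus DMSO, was -0.68, -0.23, -0.05, -0.71, -0.62, -0.74 and -1.64 in fish 1 to 7, and over the 13846 transcripts it was 0.06, 0.72, -0.08, -0.01, -0.11, -0.03 and -0.63; the pairs of fish 2 and fish 7 hold a left-out library. Of rank 1 to 8, 3 were lower in all 7 fish, against 0.318% of the 13846 transcripts. Without fish 2 and 7 it was 3 of the 8 against 6.48%. Most of these 8 moved together across libraries, so they are not separate observations. In rank 9 to 40 the medians were -0.16 to 0.23, and 0 of 32 were lower in all 7 fish. ENSGMOT00000018724.1 was lower in 7 of 7 fish, by 0.09 to 1.86 (-0.99 ± 0.66, SD, n = 7). The exact two-sided sign-flip p was 0.0156, the smallest that 7 fish allow, and 0.125 adjusted over the 8 exact tests, so it did not pass; this comparison was chosen for the exact test after its values were seen. Without the 2 fish whose pair held a left-out library it was -0.87 ± 0.65 (SD, n = 5, exact p = 0.0625). ENSGMOT00000013458.1 had -0.28 ± 0.73 (SD, n = 7, lower in 6 of 7 fish, exact p = 0.328). With BaP 10 nM the 2 transcripts had -0.51 ± 0.90 and 0.28 ± 1.05 (SD, n = 7 each), with exact p of 0.172 and 0.672. The median of rank 1 to 8, BaP 10 nM minus DMSO, was -0.65, -0.05, -0.31, -0.43, 1.11, -0.78 and -1.25 in fish 1 to 6 and 8. Over the 13846 transcripts it was 0.06, 0.83, -0.01, 0.20, -0.10, -0.74 and 0.03. The pairs of fish 2 and fish 6 hold a left-out library. Of rank 1 to 8, 0 were lower in all 7 fish, against 0.267% of the 13846.

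Where EE2 was present, BaP gave no call among the members either. For Mix 1 µM against EE2 1 µM, edgeR called 0 of 40 members against 0.0337% of all transcripts, and at an unadjusted p under 0.05 it gave 3 members against 4.46%: rank 35 at -0.56 ± 0.24, rank 11 at -0.51 ± 0.24 and rank 33 at 0.80 ± 0.36 (SE). The members' median was 0.00 with 20 of 40 above 0. The median moved with fish 8, whose Mix 1 µM slice is 1 of the 4 libraries: without that fish it was -0.22. Without the 4 libraries it was -0.31 with 5 of 40 above 0, beside -0.01 over all transcripts. In that fit 0 members were called, against 7 of 17930 transcripts. The members at an unadjusted p under 0.05 were then 6, all lower. The share of all transcripts at that threshold was not computed without the 4 libraries, so nothing is read from the 6. For Mix 10 nM against EE2 10 nM, edgeR called 0 of 40 against 0%, and at an unadjusted p under 0.05 it gave 2 members against 2.56%, rank 32 at -0.56 ± 0.22 and rank 31 at -0.63 ± 0.26 (SE). The median was -0.08 with 13 of 40 above 0. DESeq2 called 0 members in both comparisons, against 6 of all 17824 transcripts at 1 µM and 0 at 10 nM.

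Fish differed in this comparison. Mix 1 µM minus EE2 1 µM was above 0 for 35 of 40 members in fish 3, for 4 in fish 4, for 19 in fish 5, for 9 in fish 6 and for 9 in fish 8. For rank 1 to 8 the medians were 0.99, -1.11, 0.72, -0.61 and -0.64 in these fish, and over the 13846 transcripts they were -0.03, -0.03, -0.14, -0.05 and -1.22. The Mix 1 µM slice of fish 8 is a left-out library. At 10 nM the medians of rank 1 to 8, Mix minus EE2, were 0.84, 0.50, 0.33, 0.35 and 0.31 in fish 2, 4, 6, 7 and 8, against 0.31, 0.11, 0.18, 0.03 and 0.02 over the 13846 transcripts, and those of rank 9 to 40 were -0.21 to 0.17.

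The interaction terms compare the change with EE2 in the presence of BaP with that in its absence. At 1 µM, edgeR called 0 of 40 members against 0% of all transcripts, and at an unadjusted p under 0.05 it gave 1 member against 2.47%, rank 35 at -0.97 ± 0.32 (SE). The members' median was -0.14 with 14 of 40 above 0, against 0.04 over all transcripts. Without the 4 libraries it was -0.29 with 10 above 0, and it was -0.26 without fish 3, -0.03 without fish 4, -0.01 without fish 7 and -0.25 without fish 8. At 10 nM it called 0 of 40 against 0%, and at an unadjusted p under 0.05 it gave 3 members against 1.68%: rank 4 at 2.73 ± 1.30, rank 31 at -0.84 ± 0.35 and rank 32 at -0.61 ± 0.30 (SE). The median was -0.05 with 16 of 40 above 0, and without the 4 libraries it was 0.01 with 21 above 0. DESeq2 called 0 members and 0 of all 17824 transcripts at both doses.

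Sex was compared without any exposure in the 8 DMSO slices. Of these, 7 also entered the rule's limit on levels and the differences that ranked the members. ENSGMOT00000018724.1 and ENSGMOT00000013458.1 stayed above that limit without any single fish. ENSGMOT00000018724.1 had 53.6, 11.8 and 16.9 CPM in the females, fish 3, 6 and 8, and 6.19, 6.34, 7.22, 5.91 and 10.9 CPM in the males, fish 1, 2, 4, 5 and 7. All 3 females lay above all 5 males, although fish 6 and fish 7 were close. The mean log2 level was 4.47 in females and 2.85 in males, a difference of 1.62, with p = 0.0357 by an exact two-sided permutation test, the smallest that 3 against 5 allows, and 0.125 adjusted over the 8 exact tests. Without the left-out DMSO slice of fish 2 the exact p was 0.0571, again the smallest possible. The differences that put ENSGMOT00000018724.1 at rank 1 used 7 of these values, so both p values are a description. ENSGMOT00000013458.1 had 15.6, 565 and 18.3 CPM in females and 5.16, 12.2, 51.8, 6.94 and 3.16 CPM in males. A male, fish 4, lay between the females, and the difference of 2.53 had an exact p of 0.179. ENSGMOT00000013458.1 was picked for its mean in DMSO and BaP slices, which was 70.1 CPM and 22.7 CPM without the female fish 6. Its choice thus used the value that sets this difference, and nothing is read from its test.

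Over 16813 transcripts tested in DMSO slices, edgeR's quasi-likelihood test called 0 of 40 members and 0% of all between females and males. At an unadjusted p under 0.05 it gave 6 members, all of rank 1 to 8 and higher in females, against 2.01% of all transcripts. DESeq2 called 1 member, rank 7 (adjusted p = 0.0409), and 0.0714% of all transcripts. Rank 2, 4, 5, 7 and 8 had reached 1 CPM only through the female fish 3, so their choice favoured a higher level in females, and nothing is read from these counts or from the call of rank 7. As a description, the fitted log2 differences of the 6 were 5.20 ± 1.12 (SE) for rank 7, 4.04 ± 1.16 for rank 3, 3.59 ± 0.94 for rank 2, 3.51 ± 1.24 for rank 6, 2.94 ± 0.87 for rank 8 and 1.79 ± 0.47 for rank 1. Fish 3 held the highest DMSO value of rank 1, 2, 7 and 8, and fish 6 that of rank 3 and 6.

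The rule asked for the same direction in 7 fish, so only the size of the EE2 difference could vary between the sexes. It also ranked the members by the mean of these differences. The counts of this comparison are therefore a description, and nothing is read from them. In the fit with a term for EE2 or Mix slices of female fish, edgeR called 0 of 40 members against 0% of all transcripts. DESeq2 called 0 members and 0 of all 17824 transcripts. At an unadjusted p under 0.05 edgeR gave 8 members against 1.77%: 7 of rank 9 to 40 with a larger difference in females, from 0.47 ± 0.20 (SE) for rank 14 to 1.06 ± 0.47 for rank 9, and rank 7 with a smaller one, -2.76 ± 1.07. The DMSO and BaP level of rank 7 in fish 3, which admitted it to the members, enters that value. Rank 12, 13 and 14 are among the 7 and may share reads. Without the 4 libraries the count at an unadjusted p under 0.05 was 10, and the share of all transcripts at that threshold was not computed. At an adjusted p under 0.05 that fit called 0 members and 0 of 17930 transcripts.

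**Figure D5:**
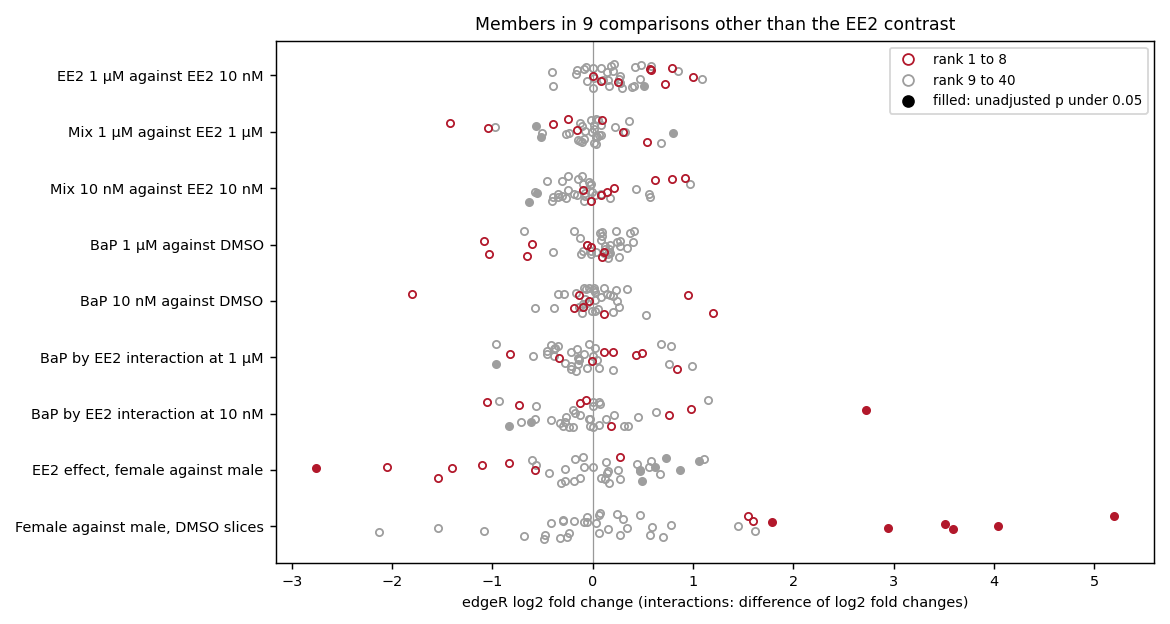
edgeR log2 fold changes of the 40 members in 9 comparisons other than EE2 or Mix against DMSO or BaP (red, rank 1 to 8; grey, rank 9 to 40; filled, unadjusted p under 0.05; none passed an adjusted p under 0.05). The points scatter around 0 in most comparisons, and the red points lie right of 0 for females against males in DMSO slices, where 5 of these 8 had passed the limit on levels only through the female fish 3.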

How the data were processed

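RNA of 47 cod liver slices was sequenced as stranded mRNA libraries with paired reads, per the labels' protocols. FastQC 0.11.5, HISAT2 2.1.0 and SAMtools 1.4.1 are named per the submitters' processing notes; the build is not given in the sources used here. The authors deposited, per library, whole-number counts of mapped segments for 22100 transcripts, not normalized. Both mates are counted, and secondary alignments may be. The segments placed on no transcript (41.8% to 57.8%) were left out.

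Members followed the stated rule (pseudocount 0.1). The members and lists were chosen with earlier results of these data known. Identifiers were printed for the member with the largest difference and, of the others, the one with the highest DMSO and BaP mean; other members go by rank. Values by group were given for the first 10 ranks, the 3 highest DMSO and BaP means, members passing a test and the limit.

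Tests used edgeR 4.0.16 in R 4.3.3 (quasi-likelihood, TMM, filterByExpr by group with a minimum count of 10 and total of 15), with fish as a block, Benjamini-Hochberg adjustment over 17824 transcripts and a threshold of 0.05. SE is the log2 fold change divided by the square root of F. DESeq2 1.42.0 was an alternative. The fits were tested on simulated data. Each replicate number carries 1 sex, body weight and liver weight, so it marks a fish; slices of the same fish deviated together (mean r = 0.70, against -0.10 between fish). Exact tests used log2(CPM + 0.1). The adjustment covers the 8 made with all libraries. The same 8 were repeated without the 4 libraries, and p values of the repeats are given unadjusted. Python 3.11.15, pandas 2.3.3 and numpy 2.4.6 were used. Reads carry no molecular identifiers, so limits from counts cover counting error only.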

Additional observations from a re-analysis of the deposited data

Results flagged for a closer look

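Of 96 sets of values of 12 members (rank 1 to 10, 19 and 24; 7 groups and the differences each) screened for a slice or fish far from the others, 7 had one; chance gives about 1 in 20 sets. Fish 3 stood apart in 6 of the 7. Rank 2 and 7 had reached the limit of 1 CPM only through fish 3, and the rule used the differences. The share that chance gives is therefore no yardstick for these flags, and nothing is read from their count. Rank 2 in fish 3 had log2 levels of 3.86 with BaP 10 nM (14.4 CPM, the next fish 1.65 CPM), 4.85 with BaP 1 µM (28.8 CPM, the next 0.955 CPM) and 5.42 with DMSO (42.7 CPM, the next 1.65 CPM). Rank 7 in fish 3 had 6.69 with Mix 1 µM (103 CPM, the next 3.43 CPM) and 5.66 with BaP 1 µM (50.4 CPM, the next 1.16 CPM). Rank 10 had a difference of 4.70 in fish 3, the next 2.40. Rank 9 had a low log2 level of 1.56 with Mix 1 µM in fish 4 (2.84 CPM, the next 19.2 CPM).

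Counts of unmapped segments whose mate lay on a member, a column the comparisons above do not use, averaged 672 per M mapped segments (M, mega) in EE2 and Mix slices (n = 24) and 139 per M in DMSO and BaP slices (n = 19). They belong to the same fragments as the mapped counts.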

How the results depend on the processing

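The 40 members shared 34 with those chosen at a pseudocount of 1, 40 with TMM-scaled CPM, 35 with all 47 libraries, 35 with a difference above 0 in 8 of 8 fish, 31 with a mean of 2 to 500 CPM and 35 with EE2 slices set against DMSO slices only. Rank 1 to 10 were all kept except under the 8-of-8 rule (9) and the higher mean (8).

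Of 306 recomputed values, 7 crossed the threshold or moved by more than the spread between fish. That spread was wide, at 0.42 for Mix 1 µM against EE2 1 µM and 0.48 for the interaction at 1 µM. The shift of the members' median in the former, from 0.00 to -0.31 without the 4 libraries, was therefore not counted. The count of 7 does not measure how stable the medians were. A fit of the EE2 groups alone called 2 members for the EE2 dose, rank 3 at 1.17 and rank 4 at 1.74, in place of 0. DESeq2 called 1 member, rank 7 at 5.22, between the sexes in DMSO slices. The members' median there was 0.11, and 0.29 without DMSO replicate 2, 0.02 without replicate 3, 0.25 without replicate 7 and 0.37 without replicate 8. With no replicate block, the unpaired fit called 0 members in the 8 comparisons that had one, and the median interaction at 10 nM was -0.30. The cause was not tested. All alternatives tried for the other comparisons called 0 members.

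The values rest on 8 fish, with 5 fish for the EE2 dose, where no exact test can pass 0.05. Near 0.1 CPM the pseudocount sets the difference, which touches, among others, rank 2, 4, 5, 7, 8, 9, 29 and 39. Names and roles of the members were not analysed here.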
